A study of Mus musculus with 10 samples.

Results

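The genes described here encode the subunits of the 26S proteasome and the chaperones that carry the same gene names. They are all genes with a symbol of Psma, Psmb, Psmc or Psmd followed by a number, each represented by its single-symbol probe set with the highest mean log2 signal over the arrays. The rule found 39 genes among the 18193 genes with a symbol on the arrays, and 35 of them were among the 10915 genes tested, the 60% with the highest mean signal. The 4 genes below that level were Psma8, Psmb8, Psmb9 and Psmb11.

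The proteasome is the main protease of the cytosol and nucleus. Its 20S core is a barrel of alpha rings, which gate entry, around beta rings, which carry the active sites, and the 19S cap unfolds substrates tagged with ubiquitin and feeds them into the core. Heat damages proteins that are either refolded by Hsp70 and other chaperones or degraded by this route, and cells that lose proteasome capacity are known to raise transcription of subunit genes together through the transcription factor Nfe2l1.

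The study measured RNA of mouse embryonic fibroblasts (MEF), cultured connective tissue cells, on 10 Affymetrix arrays, 1 per sample. One line is labelled (-/-), the Hsp70 knockout, and the other (+/+), the rescue, and the labels do not name the allele, the rescue construct, its promoter or the number of clones. Wells of 3000 cells were grown for 20 hours, and preshocked cells were then held in a 43 °C water bath for 30 minutes and given 3 hours of recovery, while unheated cells stayed in the incubator and were collected at 23 hours. All groups grew in DMEM with Normocin and fetal bovine serum under a gas-permeable cover, and each sample pooled lysates of 144 wells. There were 3 preshocked and 3 unheated arrays of the KO-labelled line, and 2 and 2 of the rescue-labelled line. The labels do not say whether samples came from separate cultures, so p-values reflect only how far these samples scatter, which may be technical. The arrays are named by their label numbers: each preshocked array (5, 11 and 13 in the KO-labelled line, 31 and 43 in the rescue-labelled line) has an unheated partner with the next number.

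All values below are either the deposited intensity, a linear fluorescence value that the authors scaled so that every array has the same trimmed mean, or its log2 after quantile normalization, which gives every array the same distribution. Changes and their standard errors (SE) are on the second scale unless the deposited scaling is named. A gene counted as called when its limma p-value, adjusted over all 10915 genes, was under 0.05. In bulk RNA, fewer cells of a type and less RNA per cell cannot be told apart.

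Hspa1b, the main heat-inducible Hsp70 gene, read 212, 477 and 220.4 on the unheated KO-labelled arrays 6, 12 and 14, and 19912, 30652 and 31556 on the preshocked arrays 5, 11 and 13. In the rescue-labelled line it read 675 and 465 on the unheated arrays 32 and 44 and 37506 and 24677 on the preshocked arrays 31 and 43. The Hspa1b transcript was thus high on every preshocked array, those labelled knockout included, so the lines are named by their labels only, and the sources do not say whether the probe set lies inside the deleted part. All 4 heat shock reference genes (Hspa1b, Dnajb1, Hsph1 and Bag3) were called higher after the preshock in each line. All 10 fibroblast markers listed were in the range tested, against 3 of 7 leukocyte, 2 of 5 epithelial and 2 of 5 endothelial markers. Array 5 had a median deposited intensity of 100.4 and its partner 6 a higher one, against 50.7 to 73.7 on the other arrays.

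Promoter sequences show what the subunit genes carry near their starts, beside 2 heat-induced genes. RefSeq windows of 250 bases before to 50 bases after the transcription start (build GRCm38.p6) were matched by symbol for 32 of the 39 genes. Each was searched on both strands for the heat shock elements GAANNTTC and TTCNNGAA, for the antioxidant response element TGACNNNGC, the type of site that Nfe2l1 and Nfe2l2 bind, and for the CCAAT box bound by Nfya and its partners. The 2 heat shock forms share the letters TTC and GAA and can overlap, and a match describes the sequence only. The 250 bases before the start follow for 2 subunit genes that hold a heat shock element and for 2 heat-induced genes called in both lines, with the heat shock element in capitals, and in Psmb5 the antioxidant response element as well.

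Psmb5, chr14:54617996-54618245, minus strand: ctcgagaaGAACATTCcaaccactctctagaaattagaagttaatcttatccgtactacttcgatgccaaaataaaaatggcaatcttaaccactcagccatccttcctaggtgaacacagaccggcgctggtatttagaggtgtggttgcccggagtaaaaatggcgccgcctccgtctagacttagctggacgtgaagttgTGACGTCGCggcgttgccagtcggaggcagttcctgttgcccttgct
Psmd4, chr3:95042615-95042864, minus strand: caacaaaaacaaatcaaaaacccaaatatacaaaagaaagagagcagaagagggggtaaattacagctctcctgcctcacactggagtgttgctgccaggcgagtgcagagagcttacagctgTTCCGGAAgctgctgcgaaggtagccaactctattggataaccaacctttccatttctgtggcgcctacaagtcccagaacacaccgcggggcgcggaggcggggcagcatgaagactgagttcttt
Hspa1b, chr17:34959239-34959488, minus strand: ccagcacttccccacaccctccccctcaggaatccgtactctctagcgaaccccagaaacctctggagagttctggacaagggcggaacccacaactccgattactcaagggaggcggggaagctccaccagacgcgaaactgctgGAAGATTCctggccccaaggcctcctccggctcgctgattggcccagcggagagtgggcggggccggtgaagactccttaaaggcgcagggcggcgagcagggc
Zfand2a, chr5:139484492-139484741, minus strand: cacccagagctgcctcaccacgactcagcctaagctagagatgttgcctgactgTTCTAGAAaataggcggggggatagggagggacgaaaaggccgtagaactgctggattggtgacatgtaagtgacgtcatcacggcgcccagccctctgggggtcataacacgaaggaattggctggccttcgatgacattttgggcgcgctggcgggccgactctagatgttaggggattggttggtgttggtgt

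In Psmb5 the heat shock element starts 242 bases before the transcription start and the antioxidant response element 47 bases before it. The heat shock element of Psmd4 starts 127 bases before the transcription start, that of Hspa1b 104 and that of Zfand2a 196 bases before it. A heat shock element of either form was present in 3 of 32 subunit genes (9.38%), namely Psmb5, Psmb9 and Psmd4, and in 17.0% of all 27025 genes with a window (15.1% of 32851 windows). The antioxidant response element was present in 5 subunit genes (15.6%), Psmb5, Psmb6, Psmc6, Psmd9 and Psmd12, and in 14% of all genes (12.4% of windows). The CCAAT box was present in 13 subunit genes (40.6%) and in 41.1% of all genes (37.4% of windows).

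The subunit genes were among the most strongly hybridizing genes on the arrays. Each of the 35 tested genes, by its brightest probe set, was ranked among all 45101 probe sets of an array. Their mean rank had a median at the 97.49th percentile of the probe sets and ran from the 77.84th to the 99.24th. A rank among genes, each by its brightest probe set, was not computed. The deposited intensities of the 35 tested genes ranged from 509.1 to 24027. The 4 genes not tested ranged from 0.984 to 38.6. Probe sets differ in brightness for reasons other than RNA abundance, so levels are not compared between genes.

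The first question was whether the preshock changed these genes in each line. In the KO-labelled line none of the 35 tested genes was called by limma and none reached an unadjusted p under 0.05, where 1.77% of all genes were called and 12.8% reached that unadjusted p. In the rescue-labelled line the counts were again 0 and 0, beside 0.357% and 8.36% of all genes. With the mean of both lines' responses, which uses all arrays, they were 0 and 0 beside 4.42% and 17.3%. The lowest adjusted p of a subunit gene in limma was 0.7514 in the KO-labelled line, 0.9997 in the rescue-labelled line and 0.6402 in the mean.

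The size of the changes was small as well as uncalled. The median change of the subunit genes was -0.0050 in the KO-labelled line and 0.03 in the rescue-labelled line, where the median of all genes tested was -0.04 and -0.03. The median absolute change was 0.07 in the KO-labelled line, against 0.17 over all genes, and 0.05 in the rescue-labelled line, against 0.19. The subunit genes also scattered less between arrays. Their median SE was 0.15 in the KO-labelled line, against 0.21 over all genes, and 0.19 in the rescue-labelled line, against 0.26. The subunit genes were also brighter, with a median of the mean log2 of 12.77, against 9.355 over all genes tested. The part of brightness in the lower scatter, and of the lower scatter in the smaller absolute changes, was not tested. Every one of the 35 subunit genes had a 95% interval inside 1 log2 unit either way in the KO-labelled line and in the mean of both lines, and 34 did in the rescue-labelled line, where the interval of Psmb2 reached 1.14. In the mean of both lines 34 intervals lay inside 0.5 log2 units either way. The smallest change that was called for any gene was 0.65 in the KO-labelled line, 1.07 in the rescue-labelled line and 0.43 in the mean of both lines.

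**Figure D1:**
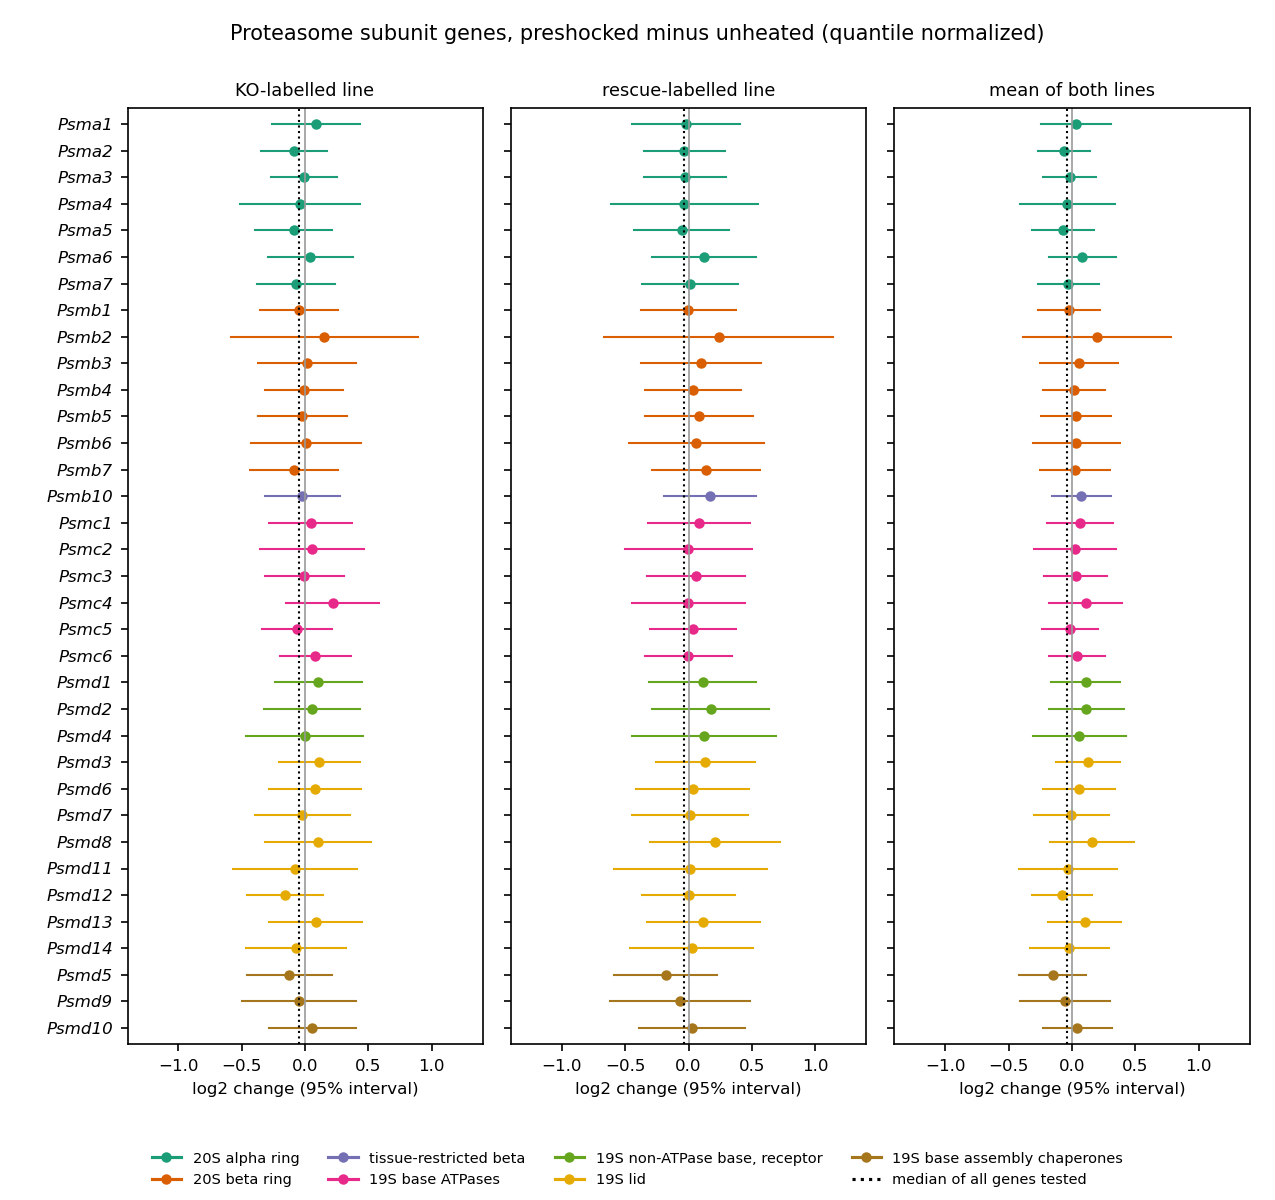
Log2 change of the 35 tested subunit genes, preshocked minus unheated, in the KO-labelled line, the rescue-labelled line and the mean of both; points are limma estimates after quantile normalization, bars their 95% intervals, colours the role in the proteasome, and the dotted line the median of all genes tested. Every interval crosses 0, and the widest is that of Psmb2.

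With the pair of adjoining arrays as a block in the same limma model, which compares each preshocked array with its partner, still no subunit gene was called. The block called 999 genes (9.15%) in the KO-labelled line, 164 (1.5%) in the rescue-labelled line and 1901 (17.4%) in the mean. The lowest adjusted p of a subunit gene was then 0.2083, 0.2531 and 0.1257. In the mean of both lines Psmb2, Psmd5 and Psmd8 reached an unadjusted p under 0.05, 3 of 35 genes, where 34.1% of all genes did. This count depended on the scaling. With arrays centred on their median, as described below, 12 of 35 reached it in the blocked limma fit, all higher. Median centring put 33 of 35 subunit genes above 0 in that mean. The share of all genes reaching an unadjusted p under 0.05 on that scale was not counted, so the 12 cannot be set against it.

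The alpha subunits form the outer rings of the core. Among the 7 tested, changes in the mean of both lines ran from -0.07 for Psma5 to 0.08 for Psma6, with a median of -0.03. Psma1 had a log2 change of 0.03, Psma3 of -0.02, Psma4 of -0.04 and Psma7 of -0.03 in that comparison, and none was called. Psma2 read lower on the preshocked array in 5 of 5 pairs after quantile normalization, by at most 0.16. On the other scalings described below its direction was mixed (deposited scaling) or reversed, higher in 5 of 5 pairs (median centring). Psma8, an alpha subunit of the testis, was listed between 0.984 and 26.2 and was not tested.

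The catalytic beta subunits are Psmb6, with caspase-like activity, Psmb7, with trypsin-like activity, and Psmb5, with chymotrypsin-like activity. Psmb5 read 5354, 4846 and 4739 on the unheated KO-labelled arrays and 4718, 5432 and 5244 on the preshocked ones. Rescue-labelled cells gave 4767 and 5768 without heat and 5832 and 5659 after it. Within each line the preshocked and unheated values overlapped, and the 5 pairs did not move one way. The log2 change of Psmb5 was -0.02 ± 0.15 (SE, 3 against 3 arrays, limma adjusted p = 0.9988) and 0.08 ± 0.19 (SE, 2 against 2, adjusted p = 0.9997).

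Deposited intensities of Psmb6 were 5126, 6644 and 8226 in unheated and 4879, 7549 and 9399.5 in preshocked KO-labelled cells. Values in rescue-labelled cells were 7077 and 6787 unheated and 8361 and 7186 preshocked. The KO-labelled values overlapped, with arrays 5 and 6 lowest, and both preshocked rescue-labelled values lay above the unheated ones. The changes of Psmb6 were 0.01 ± 0.19 (SE, adjusted p = 0.9988) in the KO-labelled and 0.06 ± 0.23 (SE, adjusted p = 0.9997) in the rescue-labelled line in limma.

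For Psmb7, unheated KO-labelled arrays gave 10344, 13463 and 15292 and preshocked ones 9659, 14004 and 16900.3. The rescue-labelled arrays read 12233 and 14316 unheated and 16239.6 and 15841 preshocked. The KO-labelled values overlapped, while the preshocked rescue-labelled arrays were above the unheated ones on the deposited scale and overlapped them after quantile normalization. The changes of Psmb7 were -0.09 ± 0.15 (SE, adjusted p = 0.9862) and 0.14 ± 0.19 (SE, adjusted p = 0.9997). Psmb7 had the largest difference of responses, rescue minus KO, at 0.22 ± 0.24 (SE, limma adjusted p = 1).

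Psmb2 is a structural subunit of the beta ring. Psmb2 read 3029, 4647 and 6197 on the unheated KO-labelled arrays and 3038, 5487 and 8275 on the preshocked ones. Rescue-labelled cells gave 5243 and 4478 without heat and 6643 and 5314 after it. KO-labelled pairs differed more than partners did, with pair 5 and 6 lowest and pair 13 and 14 highest, and in the rescue-labelled line both preshocked values were above the unheated ones. The change was 0.15 ± 0.32 (SE, adjusted p = 0.9974) in the KO-labelled and 0.24 ± 0.40 (SE, adjusted p = 0.9997) in the rescue-labelled line, and the preshocked array was higher in 4 of 5 pairs after quantile normalization. In the mean of both lines it was 0.20 ± 0.26 (SE), with a limma adjusted p of 0.848 and, with the pair as a block, of 0.1257. The other structural beta subunits had log2 changes of -0.02 (Psmb1), 0.06 (Psmb3) and 0.01 (Psmb4) in the mean.

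Psmb8, Psmb9 and Psmb10 replace the catalytic subunits in the immunoproteasome, which interferon induces and which favours peptides for antigen presentation. Deposited intensities of Psmb10 were 598, 521 and 557 in unheated and 522, 515 and 509 in preshocked KO-labelled cells. Values in rescue-labelled cells were 516 and 573 unheated and 591 and 552 preshocked. The KO-labelled values overlapped, as did the deposited rescue-labelled values. After quantile normalization the rescue-labelled groups no longer overlapped, and the changes of Psmb10 were -0.02 ± 0.13 (SE, adjusted p = 0.9988) and 0.17 ± 0.16 (SE, adjusted p = 0.9997) in limma.

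For Psmb8, unheated KO-labelled arrays gave 9.93, 3.87 and 1.38 and preshocked ones 9.87, 8.62 and 7.23. The rescue-labelled arrays read 38.6 and 23.1 unheated and 2.98 and 9.55 preshocked. Psmb8 was thus low on all arrays, with its highest values on the unheated rescue-labelled arrays. Psmb9 read 25.2, 7.38 and 9.5 on the unheated KO-labelled arrays and 20.2, 36.5 and 8.4 on the preshocked ones. Rescue-labelled cells gave 7.43 and 7.92 without heat and 18.5 and 9.1 after it. Psmb9 was low on all arrays, with no group apart from the others. Both lay below the level of the genes tested. In a fit that kept genes of every level, Psmb8 differed between the unheated lines by 3.69 ± 0.63 (SE, rescue minus KO, limma adjusted p = 0.1469), between values near the bottom of the arrays' range. Psmb11, the thymus subunit, was listed between 1.35 and 37.9.

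**Figure D2:**
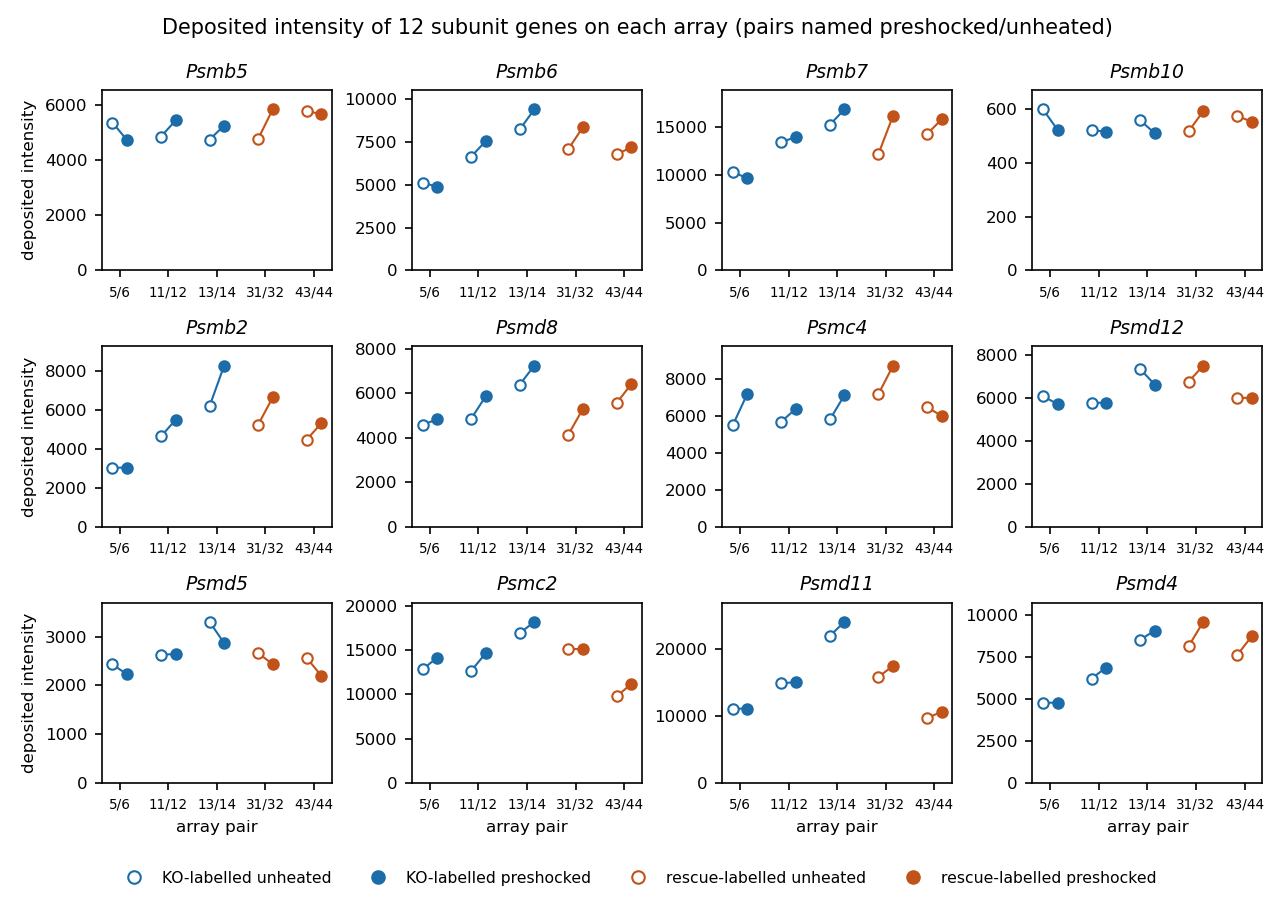
Deposited intensity of 12 subunit genes on each of the 10 arrays, drawn by pair (preshocked array number before the unheated one) with a line joining partners, open points unheated and filled points preshocked, blue KO-labelled and orange rescue-labelled. For Psmb6, Psmd4 and Psmd11 the KO-labelled pairs lie further apart than the partners within them.

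The 6 Psmc genes encode the ATPase ring at the base of the cap, which unfolds substrates. Deposited intensities of Psmc4 were 5506, 5703 and 5816 in unheated and 7212, 6402 and 7143 in preshocked KO-labelled cells. Values in rescue-labelled cells were 7201 and 6487 unheated and 8739 and 6009.9 preshocked. The deposited values of the preshocked KO-labelled arrays were all above the unheated ones, but after quantile normalization the groups overlapped, and the rescue-labelled values overlapped on both scales. The change of Psmc4 was 0.22 ± 0.16 (SE, adjusted p = 0.7514) in the KO-labelled line, the largest of the 35 there, and -0.0034 ± 0.20 (SE, adjusted p = 0.9997) in the rescue-labelled line. The difference of responses, rescue minus KO, was -0.22 ± 0.25 (SE, limma adjusted p = 1). The log2 changes of the other ATPase genes in the mean of both lines were 0.06 (Psmc1), 0.03 (Psmc2), 0.03 (Psmc3), -0.02 (Psmc5) and 0.04 (Psmc6).

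Psmd1 and Psmd2 are the large scaffold subunits of the base, and Psmd4 is a ubiquitin receptor. Their changes in the mean of both lines were 0.11, 0.11 and 0.06, and none was called. Psmd1 was higher on the preshocked array by 0.05 to 0.18 over the 5 pairs and Psmd2 by 0.04 to 0.21.

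The lid removes ubiquitin chains, through its protease Psmd14, and its other subunits are structural. For Psmd8, unheated KO-labelled arrays gave 4579, 4846 and 6382 and preshocked ones 4819.6, 5861 and 7233. The rescue-labelled arrays read 4135 and 5573 unheated and 5290.3 and 6409 preshocked. Each preshocked array read higher than its partner, while the groups of each line overlapped. The change of Psmd8 was 0.10 ± 0.18 (SE, adjusted p = 0.9857) in the KO-labelled and 0.21 ± 0.22 (SE, adjusted p = 0.9997) in the rescue-labelled line. Their mean was 0.16 ± 0.14 (SE, adjusted p = 0.7312 in limma, and 0.1294 with the pair as a block).

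Psmd12 read 6063, 5754 and 7337 on the unheated KO-labelled arrays and 5702, 5766 and 6608 on the preshocked ones. Rescue-labelled cells gave 6743 and 5989 without heat and 7487 and 5989 after it. The groups overlapped in the KO-labelled line, and in the rescue-labelled line array 43 and its partner differed by under 1 unit. Psmd12 had the lowest log2 change in the KO-labelled line, -0.16 ± 0.13 (SE, limma adjusted p = 0.8073), with 0.00055 ± 0.16 (SE, adjusted p = 0.9997) in the rescue-labelled line. The log2 changes of the other lid genes in the mean of both lines were 0.12 (Psmd3), 0.06 (Psmd6), -0.0041 (Psmd7), -0.03 (Psmd11), 0.10 (Psmd13) and -0.02 (Psmd14).

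Psmd5, Psmd9 and Psmd10 are chaperones that help to assemble the base and leave before it is complete. Psmd5 read lower on the preshocked array in 5 of 5 pairs after quantile normalization, by 0.01 to 0.23, though not in 5 of 5 on the other scalings, with a mean change of -0.15 ± 0.12 (SE, limma adjusted p = 0.6402, and 0.1383 with the pair as a block). The log2 changes of the other chaperone genes were -0.06 (Psmd9) and 0.04 (Psmd10).

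Without regard to size, 6 of 35 subunit genes were higher on the preshocked array in 5 of 5 pairs, beside 12.6% of all genes. They were Psmd1, Psmd2, Psmd3, Psmd6, Psmd8 and Psmd13, all of the cap after quantile normalization. Core genes joined them on the other scalings described below. Of the 35 tested genes, the cap supplied 6 ATPases, 3 other base subunits or receptors and 8 lid genes. Psma2 and Psmd5 were lower in 5 of 5 pairs, 2 of 35 genes beside 22% of all genes. In the KO-labelled line no subunit gene had groups that did not overlap, beside 5.63% of all genes higher and 10.7% lower. In the rescue-labelled line 5 were higher without overlap (Psmb2, Psmb6, Psmb10, Psmd4 and Psmd13) and 2 lower (Psma2 and Psmd5), beside 16.4% and 22.3% of all genes.

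The size of the median shift depended on the scaling, and so did its sign in the KO-labelled line. With the deposited scaling kept, the median change of the subunit genes was 0.08 in the KO-labelled and 0.13 in the rescue-labelled line, while the median of all genes tested was -0.07 in both. In the mean of both lines it was 0.11 with the deposited scaling and 0.16 with arrays centred on their median, against 0.03 after quantile normalization. Relative to the median of all genes, the subunit genes were higher by 0.07 after quantile normalization and by 0.18 with the deposited scaling. Median centring gives the same 0.18 by construction, because it only subtracts a constant from each array. The count of subunit genes above 0 in that mean was 22 of 35, 30 of 35 with the deposited scaling and 33 of 35 with median centring.

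By pairs, the number higher in 5 of 5 was 16 of 35 with the deposited scaling, beside 12.7% of all genes. With median centring it was 19 of 35, beside 16.2%. None was then lower in 5 of 5 on either scaling. Core genes were higher in 5 of 5 on both, among them Psma1, Psma3, Psma6, Psmb2, Psmb3 and Psmb4. The 6 cap genes named above were higher in 5 of 5 pairs under each of the 3 scalings. They were picked from these same values, and both other scalings raised the median change of the subunit genes, so this is no separate support. No subunit gene was called on the other scalings, with or without the pair as a block. The lowest adjusted p in limma, in the mean with the block, was 0.05701 for Psmd2 (log2 change 0.22) on the deposited scaling and 0.06307 for Psmb2 (log2 change 0.31) with median centring.

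The deposited distribution of the arrays moved with the preshock too. The 99th percentile of intensity was higher on the preshocked array in each of 5 pairs, by 0.04, 0.15, 0.12, 0.16 and 0.08 (log2, in the order of arrays 5, 11, 13, 31 and 43), and the 75th percentile was lower, by -0.06, -0.11, -0.14, -0.16 and -0.10. The 95th percentile was higher by 0.04, 0.03, 0.03, 0.04 and 0.04, and the 90th differed by 0.0060, -0.0085, -0.03, -0.04 and -0.0068. On each array the median deposited intensity of the subunit genes lay between its 95th and 99th percentiles. The median difference of the subunit genes in the same pairs was 0.0041, 0.15, 0.12, 0.20 and 0.08 on the deposited scaling and -0.04, 0.04, 0.01, 0.11 and 0.03 after quantile normalization. The part of the arrays' distributions in the shift was not tested.

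**Figure D3:**
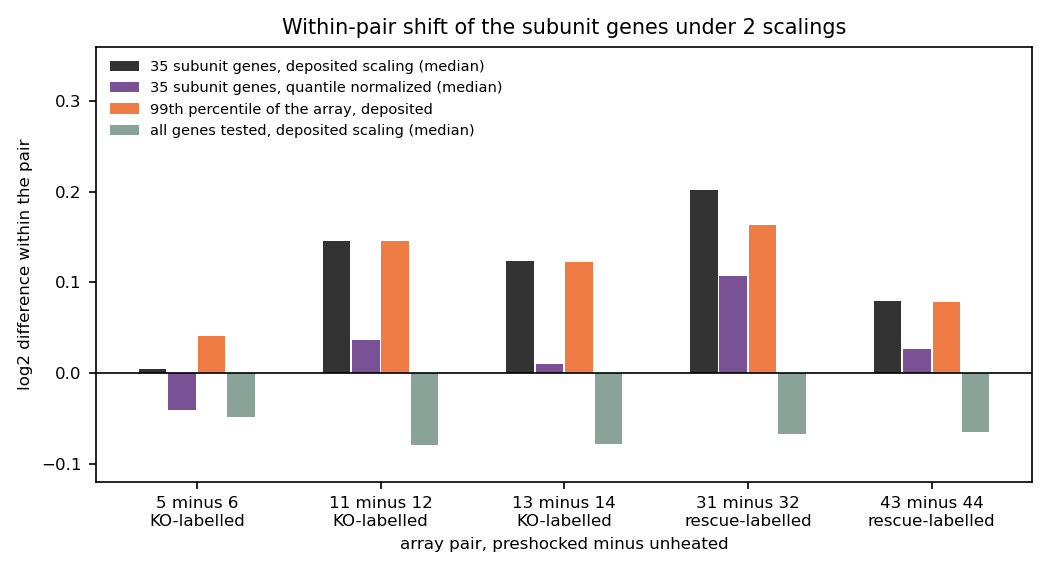
Log2 difference within each of the 5 pairs, preshocked minus unheated, for the median of the 35 subunit genes on the deposited scaling and after quantile normalization, for the 99th percentile of the whole array and for the median of all genes tested on the deposited scaling. On the deposited scaling the subunit median and the 99th percentile are within 0.04 of each other in each pair, and the quantile normalized median is smaller.

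The second question was whether the lines differed in their response. For the difference of responses, rescue minus KO, no subunit gene was called by limma and none reached an unadjusted p under 0.05, with or without the block. Of all genes 0% were called, and 0.944% reached that unadjusted p without the block. The subunit genes' differences ran from -0.22 (Psmc4) to 0.22 (Psmb7) with a median of 0.05, beside 0.01 over all genes. No tested subunit gene moved one way in every KO-labelled pair and the other way in every rescue-labelled pair, beside 1.52% of all genes (KO-labelled higher) and 1.95% (KO-labelled lower). Only 2 of the 35 intervals lay inside 0.5 log2 units either way and 34 inside 1 log2 unit.

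The third question was whether subunit levels differed between the lines themselves. In unheated cells no subunit gene was called, beside 0.421% of all genes, and none reached an unadjusted p under 0.05 in limma, beside 12.9%. In preshocked cells the counts were 0 and 0, beside 0.339% and 14.1%. The medians, rescue minus KO, were -0.06 in unheated and 0.01 in preshocked cells, against -0.02 and -0.01 over all genes. With the pair as a block no subunit gene was called in either comparison, with lowest adjusted p of 0.4442 and 0.4048.

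Psmd11, a structural lid subunit, had the largest difference in unheated cells. Deposited intensities of Psmd11 were 11092, 14850.4 and 21953 in unheated and 11089, 15061 and 24027 in preshocked KO-labelled cells. Values in rescue-labelled cells were 15811 and 9707 unheated and 17482 and 10604 preshocked. The lines overlapped, with array 44 lowest of the unheated and array 14 highest. The difference was -0.45 ± 0.24 (SE, limma adjusted p = 0.4635) in unheated and -0.36 ± 0.24 (SE, adjusted p = 0.5379) in preshocked cells. Of the 8 probe sets of Psmd11, the 2 with an unadjusted limma p under 0.05 in both comparisons gave -0.73 and -1.66 in unheated and -0.74 and -1.86 in preshocked cells. Another reached it in unheated cells only. These 2 were picked by their p and differed in size from each other and from the probe set used. The directions of the remaining probe sets are not given here, and none was called.

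Psmc2 had the next largest difference in unheated cells and the largest in preshocked cells. For Psmc2, unheated KO-labelled arrays gave 12836, 12679.6 and 16936 and preshocked ones 14171, 14659 and 18202. The rescue-labelled arrays read 15148 and 9813 unheated and 15124 and 11204 preshocked. The deposited values of the lines overlapped in both conditions, and array 43 and its partner 44 were lowest. The difference was -0.38 ± 0.20 (SE, adjusted p = 0.461) in unheated and -0.44 ± 0.20 (SE, adjusted p = 0.3679) in preshocked cells, where quantile normalized values no longer overlapped.

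Psmd4 read 4751, 6197 and 8493 on the unheated KO-labelled arrays and 4778, 6854 and 9048 on the preshocked ones. Rescue-labelled cells gave 8125 and 7599 without heat and 9564 and 8714 after it. Arrays 5 and 6 were lowest, and the deposited values of the lines overlapped in both conditions. After quantile normalization the preshocked groups did not overlap, and the difference of Psmd4, rescue minus KO, was 0.40 ± 0.23 (SE, limma adjusted p = 0.4572) in preshocked and 0.28 ± 0.23 (SE, adjusted p = 0.6238) in unheated cells.

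Across the list, 3 genes were higher without overlap in the unheated rescue-labelled cells (Psmb4, Psmc4 and Psmc6) and 7 lower (Psma2, Psma6, Psma7, Psmb1, Psmc3, Psmc5 and Psmd14), beside 14.9% and 16.3% of all genes. In preshocked cells 4 were higher (Psma5, Psmb4, Psmb5 and Psmd4) and 3 lower (Psma3, Psma7 and Psmc2), beside 16.6% and 16.4%. With all 4 rescue-labelled arrays against all 6 KO-labelled arrays, Psmb4 was higher and Psma7 lower without overlap, each 1 of 35 genes, beside 5.69% and 5.45% of all genes. The mean difference over these arrays was 0.23 for Psmb4 and -0.24 for Psma7. On the deposited scaling no subunit gene separated all arrays of the lines.

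Centring the arrays on their median moved the median of all genes between the lines by 0.50 in unheated and 0.42 in preshocked cells, and that of the subunit genes to 0.55 and 0.54, so all 35 were then above 0. Relative to all genes the subunit genes differed by -0.04 and 0.02 after quantile normalization and by 0.06 and 0.12 with median centring. This scaling shifts all genes of a comparison alike, so only differences relative to the median of all genes are compared between scalings.

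**Figure D4:**
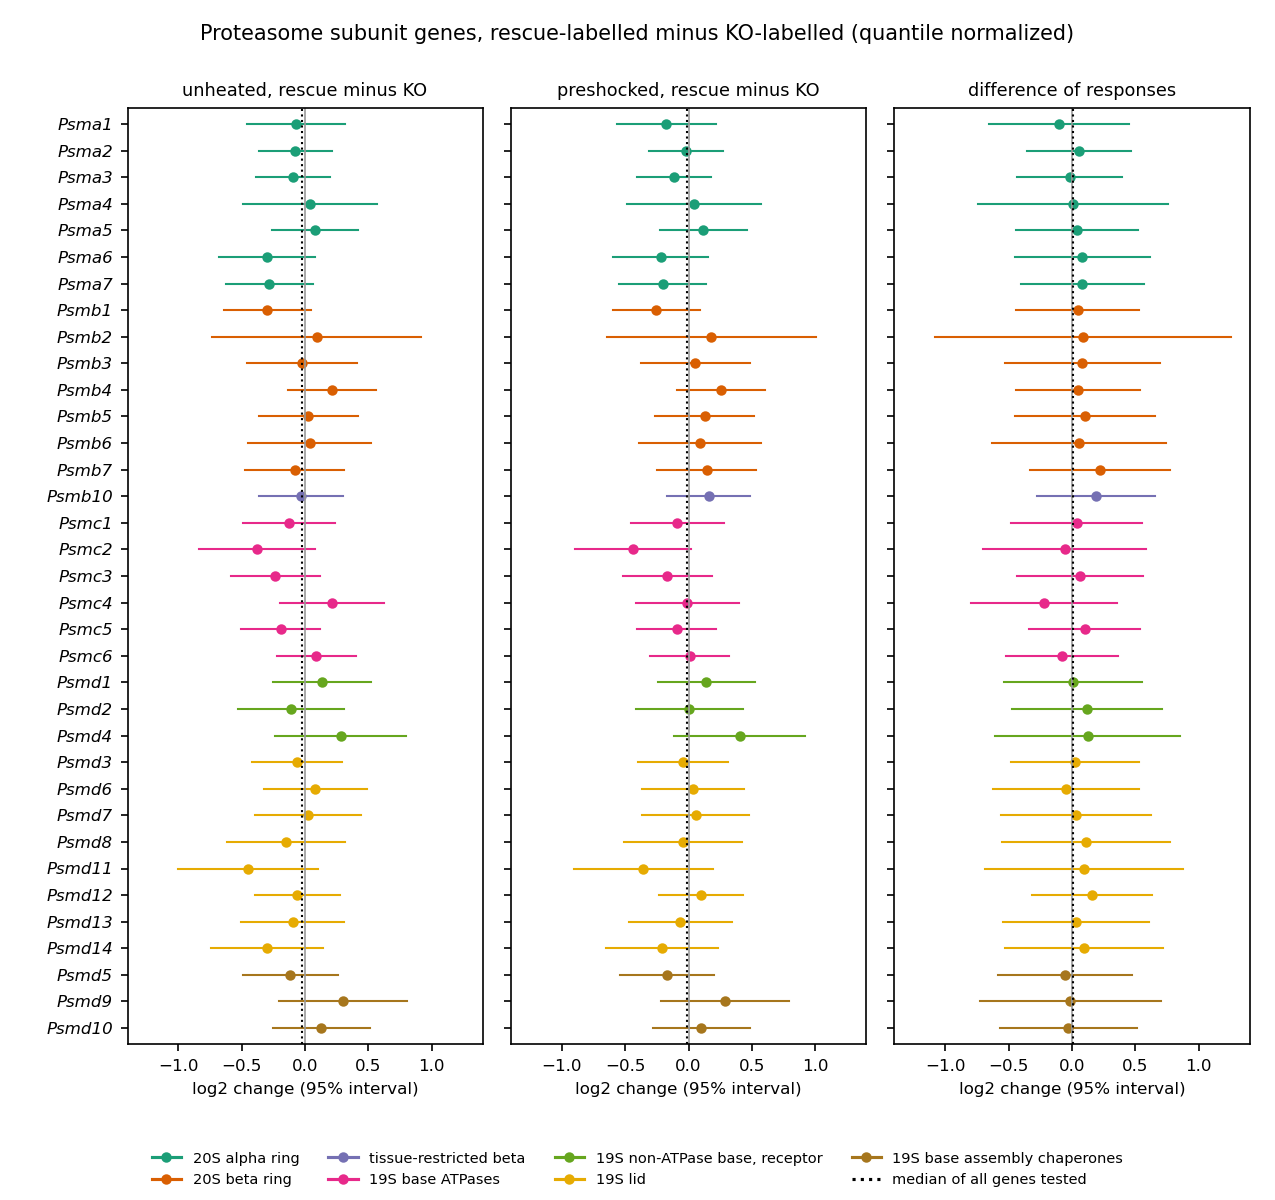
Log2 difference of the 35 tested subunit genes, rescue-labelled minus KO-labelled, in unheated cells and in preshocked cells, and the difference of the responses to the preshock; points are limma estimates after quantile normalization with 95% intervals, coloured by role, and the dotted line is the median of all genes tested. Psmd11 and Psmc2 lie lowest and Psmd4 highest of the preshocked panel.

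On both arrays 5 and 6, 22 of the 35 subunit genes (62.9%) read lower than on all 4 other KO-labelled arrays, and 21.1% of all genes did. The median difference of pair 5 and 6 from the other KO-labelled arrays was -0.20 over the subunit genes, against 0.0040 over all genes, and it was -0.85 for Psmb2, -0.50 for Psma4 and -0.45 for Psmb6. The count was 27 of 35 on the deposited scaling, beside 19.2% of all genes, and 35 of 35 with median centring, beside 59.8%. The part of these arrays' higher median intensity, given above, in this difference was not tested.

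Partners resembled each other more than pairs did. The median over the subunit genes of the SD between pair means within a line was 0.15, and that of the SD of the within-pair differences was 0.09. These SDs are unlike measures, since for unrelated arrays a difference of partners scatters more than their mean. The SD between pairs was the larger in 28 of 35 subunit genes (80%) and in 60.6% of all genes. For Psmd4 these SDs were 0.25 and 0.02, and for Psmd6 0.17 and 0.02.

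Genes around the proteasome were described from lists by role. Among activators, assembly factors and associated proteins, 16 of 19 genes were tested and none was called in any of the 6 comparisons, with or without the block. The changes in the mean of both lines ran from -0.25 for Psmg3, an assembly chaperone of the core (limma adjusted p = 0.3512), to 0.15 for Psmf1, an inhibitor of the core (adjusted p = 0.5576).

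Among ubiquitin genes and shuttle receptors, which bring tagged proteins to the proteasome, 9 of 14 were tested. Zfand2a, a heat-inducible zinc finger protein that binds the proteasome, read 1786, 1677 and 1545 on the unheated and 8091, 8939 and 8584 on the preshocked KO-labelled arrays. In the rescue-labelled line it read 1602 and 1981 unheated and 8930.1 and 10291 preshocked. All preshocked arrays lay above all unheated ones, and Zfand2a rose by 2.34 (limma adjusted p = 0.0004692) in the KO-labelled and by 2.35 (adjusted p = 0.002533) in the rescue-labelled line. No other gene of this list was called. With the pair as a block, Ubqln1, a ubiquilin, and Zfand5, a proteasome activator, also rose in the mean of both lines, by 0.49 (adjusted p = 0.01088) and 0.27 (adjusted p = 0.04413), where limma without the block gave 0.1044 and 0.4094. The block called 17.4% of all genes in that comparison.

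Among regulators of proteasome genes, 7 of 9 were tested and none was called. Nfe2l2, the regulator of antioxidant genes, read 2631, 2737 and 2773 on the unheated and 1985, 1889.9 and 1803 on the preshocked KO-labelled arrays, and 2648 and 3275 and 1890.3 and 2913 in the rescue-labelled line. The KO-labelled groups did not overlap, and array 43 was above array 32 in the rescue-labelled line. The changes of Nfe2l2, Nfya and Nfe2l1 in the mean of both lines were -0.44, -0.56 and -0.39, with limma adjusted p of 0.1319, 0.1398 and 0.3924. With the pair as a block all 3 passed, at adjusted p of 0.01669, 0.02464 and 0.03811, beside 17.4% of all genes. In the KO-labelled line Nfe2l2 and Nfya passed with the block, at 0.03187 and 0.04096, beside 9.15% of all genes.

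**Figure D5:**
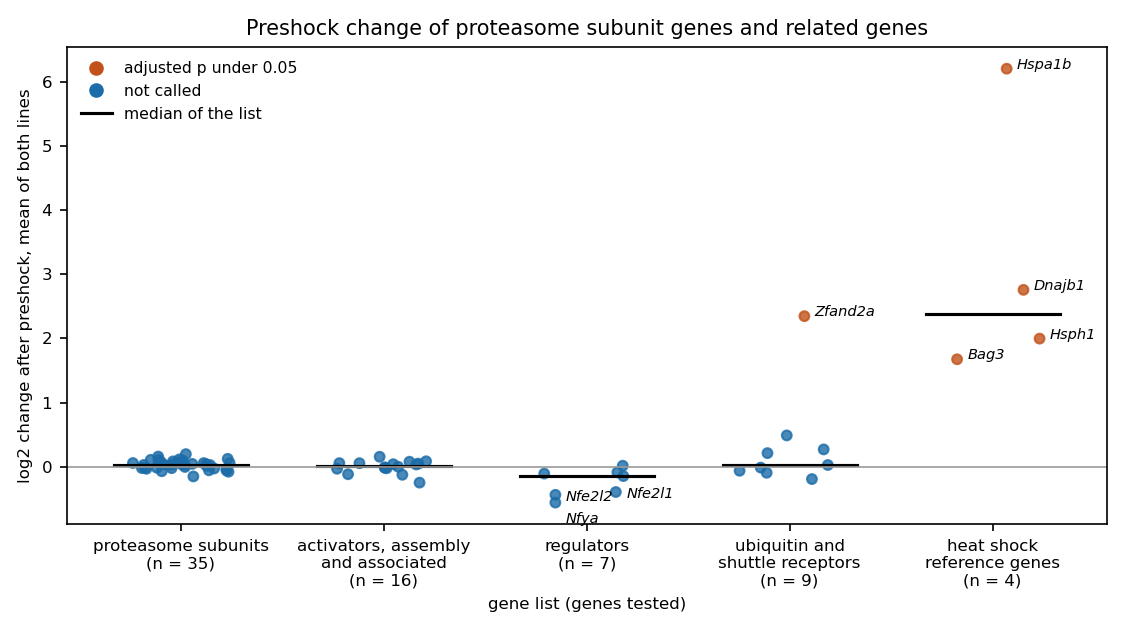
Log2 change after the preshock, mean of both lines, of the tested subunit genes and of 4 lists of related genes; each point is a gene (limma, quantile normalized), orange marks an adjusted p under 0.05 without the pair block, and the horizontal bar is the median of the list. The 35 subunit genes lie between -0.15 and 0.20, and the heat shock reference genes between 1.67 and 6.203.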

How the data were processed

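RNA was measured in 10 samples, 1 array each. The deposited values are linear intensity per probe set, made by the authors with summarisation software not given in the sources used here. Every array had a mean of 500.003 to 500.004 after trimming 2% at each end. Array medians of log2 values differed by up to 1.08, so values were set to a floor of 1 (4935 values), log2 transformed and quantile normalized with limma 3.58.1 (R 4.3.3, statmod 1.5.0). The 64 control probe sets were left out. The files hold no measure of signal over background, so whether dim genes were detected cannot be told. Precision is limited by the number of arrays.

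A limma model with a mean for each of 4 groups gave 6 comparisons, adjusted by Benjamini and Hochberg over 10915 genes. It was tested on simulated data. Members and gene lists were chosen with earlier results of these data known. Named in full are the 2 members with the largest change of each comparison, the catalytic subunits and their inducible counterparts, and any called member. From other lists, called genes and up to 3 genes with the smallest adjusted p are named. Psmd5 and the members of counts were named after their values were seen.

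Pairing by adjoining array numbers is an inference from the labels. Deviations from group means correlated at 0.721, 0.376, 0.552, 0.370 and 0.370 over 10915 genes, and the last 2 values are equal because the deviations of 2 arrays mirror each other. The pair was a fixed block within lines and a random block between them (correlation 0.716). Alternatives were the scaling, a floor of 16, the gene filter, the block and leaving out arrays or a pair.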

Additional observations from a re-analysis of the deposited data

How the results depend on the processing

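No subunit gene was called in any of the 6 comparisons under any alternative run, including the pair of adjoining arrays as a replicate block, with 0 called. Blocked fits on the deposited scaling and with median centring were added after seeing the data. The median change of the subunit genes moved with the scaling by more than its spread. With arrays centred on their median, with or without the block, it was 0.17 in the KO-labelled line, 0.14 in the rescue-labelled line, 0.16 in the mean of both, 0.55 between unheated and 0.54 between preshocked lines. With the deposited scaling it was 0.082 in the KO-labelled line and 0.11 in the mean. Without the pair of arrays 5 and 6 the preshocked line difference was -0.083, and leaving out 1 array at a time gave -0.083 (without array 5) to 0.041. Median centring moved the median of all genes to 0.50 between unheated and 0.42 between preshocked lines. On that scale Psmd11 in unheated cells read 0.23 and Psmc2 0.34 in unheated and 0.21 in preshocked cells, above 0 like all 35 subunit genes but still below the median of all genes. Psmd12 in the KO-labelled line read 0.0066, beside 0.01 for all genes. Without rescue-labelled unheated array 32, Psmd8 turned to -0.039 in the rescue-labelled line (0.46 without array 44), where the lone array is assumed to vary like the other groups. The cause of the change in Psmd8 was not tested. With 2 or 3 arrays a group, the intervals given in the report bound the changes that could be seen.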

Other observations

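Interferon-stimulated and antigen presentation genes, whose products work with the immunoproteasome, were described beside Psmb8, Psmb9 and Psmb10. Of 16 genes, 9 were tested and none was called by limma in the 6 comparisons. The change of H2-D1, a class I antigen-presenting molecule, in the mean of both lines was 0.32 (adjusted p = 0.5653, and 0.04451 with the pair as a block). That of H2-K1 was 0.37 (adjusted p = 0.6391, and 0.06116 with the block). The block called 17.4% of all genes in that mean.

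The 39 subunit genes had 78 probe sets, and 29 of those not used for a gene, in 17 genes, lay at the level of the genes tested. None was called in any comparison. A dim probe set of Psmd7 gave 1.33 ± 0.55 (SE, limma adjusted p = 0.7269) after the preshock in the KO-labelled line, where the brighter probe set gave -0.02 ± 0.21.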
